A study of Mus musculus with 12 samples.

Results

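The sialyltransferases are the enzymes that put sialic acid on the ends of glycans, and 10 of their genes are described here in the mouse macrophage line RAW264.7. The 10 genes (St6gal1, St3gal1, St3gal2, St3gal3, St3gal4, St3gal5, St3gal6, St6galnac4, St6galnac6 and St8sia4) were taken by name from 24185 named genes on the array, 13856 of which passed the filter on dim probes and were tested. They were chosen by their signal on these arrays over the groups described below, with results of these data in view. Their levels and differences are therefore given as a description, without p-values. All 10 passed the filter, with 14 of their 15 probes. The array carried another 10 genes of the family.

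The study measured RNA on 12 1-colour arrays, 3 in each of 4 groups called NS, HS, NS+LPS and HS+LPS. The salt groups received 40 mM added NaCl and the LPS groups 10 ng/ml lipopolysaccharide, a bacterial cell wall component, all for 24 h. HS is read here as the group with added NaCl and NS as its counterpart without it, because the labels do not spell out the letters. All groups came from the same line, and nothing in the labels says that the 3 samples of a group were separate cultures, so their spread may be technical.

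Sialic acid is made in the cytosol, activated in the nucleus and carried into the Golgi, where each sialyltransferase adds it to a particular acceptor in a particular linkage. St6gal1 makes the α2,6 linkage on N-glycans, the St3gal enzymes make α2,3 linkages on N-glycans, O-glycans and glycolipids, the St6galnac enzymes act on N-acetylgalactosamine, and St8sia4 builds chains of polysialic acid. On macrophages these caps are read by Siglecs, receptors that bind sialic acid, and they can hide the galactose residues that galectins bind.

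Relative signal below is the scanner's background-subtracted signal divided by the 75th percentile of all non-control spots on that array, so 1 is the 75th percentile. Levels of different genes are not compared, because probes differ in their response. Expression values are bulk, so fewer cells that carry a transcript and less of it per cell cannot be told apart. NS, HS and 2 of the NS+LPS arrays lay on 1 slide. The other NS+LPS array lay on another slide of the same scan day. The 3 HS+LPS arrays lay alone on a separate slide of a different scan day. No difference from HS+LPS can be separated from that slide and scan day: group and batch cannot be told apart there. This holds for every value below for salt with LPS, LPS with salt and the difference of the salt effects. The HS+LPS arrays were also dimmer, with a 75th percentile of 411 to 438 against 613 to 783 on the other 9. They had the smallest shares of probes well above background, 43.7% to 44.7% against 45.0% to 52.8% on the other 9. All 8 macrophage markers on the array were well above background on all 12 arrays, and their summed relative signal, carried mostly by Csf1r, Cd14, Cd68 and Lyz2, was 828 (NS), 874 (HS), 868 (NS+LPS) and 1052 (HS+LPS). Single markers moved with the groups, in both directions. From NS to HS+LPS, mean relative signal went from 226 to 153 for Cd68 and from 13.6 to 6.87 for Emr1. Over the same groups Csf1r went from 359 to 421, Itgam from 6.7 to 11.8, Lyz2 from 84.0 to 153 and Cd14 from 126 to 290. Sfpi1 read 5.39 and 5.45 there. Fcgr1 went from 6.82 in NS to 28.3 in NS+LPS and was 10.6 in HS+LPS. Of the defining markers of other cells, none of 5 epithelial genes was well above background on any array. None of 5 fibroblast genes was so on all 12 arrays, but Col1a2 was on 9 and Dcn on 5. Mean relative signal of Dcn was 0.170 in NS and 0.0118 with salt alone. Under LPS it was 0.109 without salt and 0.0200 with salt. Dcn was called lower with salt alone, where the groups overlapped, and the salt difference under LPS did not pass. On all 12 arrays 1 of 5 B cell genes (Cd79b), 2 of 5 T cell genes (Cd3e and Cd4) and 1 of 7 granulocyte genes (Elane) were well above background, and Cd79a was on 9, while Ms4a1, Pax5 and Cd3g were on none. The granulocyte genes S100a8 and Camp were higher with LPS alone, at a mean relative signal of 0.921 against 0.0806 and 0.125 against 0.0342. The rest of that list did not go with them. Elane read 0.482 in NS and 0.535 in NS+LPS, and Mpo, Ngp, Ly6g and S100a9 were well above background on no array. The part of these markers in the results was not tested, and those named here were chosen after their values were seen.

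In 3 genes with a pair of measured probes, the direction of some called results turned on the probe, because the probes of a pair did not always move alike. The first 30 bases of each 60-base probe are shown in lower case as the scanner files list them, to mark which part of the transcript each one reads.
St6gal1 upstream, probe A_51_P101375: gaagcctactcagttactctagagtaaagt
St6gal1 downstream, probe A_52_P161630: tgtgggggagtaaattaataagtgtaatat
St3gal1 upstream, probe A_51_P301804: aataccaggaaaggtctagcctccaaacaa
St3gal1 downstream, probe A_65_P03728: atcctcctgattggtctgaatgcatttcca
St6galnac4 upstream, probe A_55_P2026223: tttgcatgagcaggctccaaggagcgccca
St6galnac4 downstream, probe A_55_P2176385: gatctgacattctcacatggacatacatgc
By the files' coordinates on mm9, the St6gal1 probes lie on the plus strand at chr16:23358405-23358465 and chr16:23360037-23360096, and they start 1632 bases apart on the transcript. The St3gal1 probes lie on the minus strand at chr15:66937894-66937953 and chr15:66934515-66934574, 3379 bases apart. The St6galnac4 probes lie on the plus strand at chr2:32452606-32452665 and chr2:32455925-32455984, 3319 bases apart. Exon, intron and UTR annotation of these positions was not used here.

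Promoter windows were matched for 8 of the 10 genes, 11 windows in all, in RefSeq's GRCm38.p6; St3gal1 and St3gal2 had none in the table used. The 250 bases before each start of St6gal1 and St3gal6 are shown because these were the members that fell and rose most with LPS alone, with motif matches in capitals.
St6gal1, first start, chr16:23224490-23224739, plus strand: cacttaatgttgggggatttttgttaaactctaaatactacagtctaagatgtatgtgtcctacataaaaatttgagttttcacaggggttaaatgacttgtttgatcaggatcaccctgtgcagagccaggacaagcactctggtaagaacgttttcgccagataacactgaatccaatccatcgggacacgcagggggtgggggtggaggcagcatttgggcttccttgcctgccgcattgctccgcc
St6gal1, second start, chr16:23225771-23226020, plus strand: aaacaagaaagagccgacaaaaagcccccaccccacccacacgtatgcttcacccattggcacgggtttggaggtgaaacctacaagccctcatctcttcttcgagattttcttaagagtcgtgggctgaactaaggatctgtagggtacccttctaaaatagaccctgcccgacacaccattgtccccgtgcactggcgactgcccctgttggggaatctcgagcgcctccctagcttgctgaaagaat
St6gal1, downstream start, chr16:23290220-23290469, plus strand: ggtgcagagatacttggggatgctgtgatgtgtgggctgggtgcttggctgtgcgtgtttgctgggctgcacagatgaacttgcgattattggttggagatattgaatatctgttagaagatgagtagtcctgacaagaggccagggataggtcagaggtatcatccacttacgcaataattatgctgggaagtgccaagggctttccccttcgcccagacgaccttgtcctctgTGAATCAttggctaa
St3gal6, first listed, chr16:58523427-58523676, minus strand: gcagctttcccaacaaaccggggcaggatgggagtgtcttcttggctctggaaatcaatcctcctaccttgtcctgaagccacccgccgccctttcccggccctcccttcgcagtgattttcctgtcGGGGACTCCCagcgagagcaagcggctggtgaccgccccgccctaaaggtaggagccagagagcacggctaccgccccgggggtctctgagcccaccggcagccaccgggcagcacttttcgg
St3gal6, second listed, chr16:58524254-58524503, minus strand: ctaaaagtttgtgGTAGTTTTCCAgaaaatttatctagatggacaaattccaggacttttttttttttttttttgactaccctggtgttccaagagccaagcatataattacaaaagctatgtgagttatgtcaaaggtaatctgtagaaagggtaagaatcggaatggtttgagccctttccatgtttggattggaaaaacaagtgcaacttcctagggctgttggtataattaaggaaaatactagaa
The 250 bases were searched on both strands for 5 motifs: AP-1 as TGANTCA, the PU.1 core as GAGGAA, and the consensus sequences of NF-kB, TonE and the interferon response element (ISRE). TonE is the site of NFAT5, the transcription factor known for its response to raised tonicity. The St6gal1 window farthest downstream held 1 AP-1 match, a motif found in 6.75% of 32851 windows, and its other windows held no match. The first listed St3gal6 window held 1 NF-kB consensus match (7.25% of all windows) and the second 1 TonE consensus match (4.31%). PU.1 cores, present in 23.3% of windows, had 2 matches in St3gal3, 2 in St8sia4 and 1 in St3gal4, and no matches in these windows overlapped another motif. No window of the 8 genes held an ISRE match (1.12% of all windows). These matches describe letters only.

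Over the 10 genes, added salt without LPS left 5 called higher and 3 lower, beside 18.2% of all genes called higher and 18.8% called lower at a Benjamini-Hochberg adjusted p under 0.05 in limma. With LPS present, salt left 5 higher and 3 lower, beside 26.2% and 31.4%. LPS without added salt left 4 higher and 5 lower, beside 28.6% and 35.1%, and LPS with added salt 5 higher and 4 lower, beside 30.5% and 41.8%. The salt effect differed with LPS in 7 genes, 4 upward and 3 downward, beside 17.4% and 18.8%. With quantile normalization the upward share of all such calls was 58.2%, against 48.0% here. Because the genes were chosen on these contrasts, nothing is read from their counts. The median log2 difference of the 10 was 0.07 for salt without LPS and -0.13 for LPS without added salt, where that of all genes was 0.02 and -0.03.

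**Figure D1:**
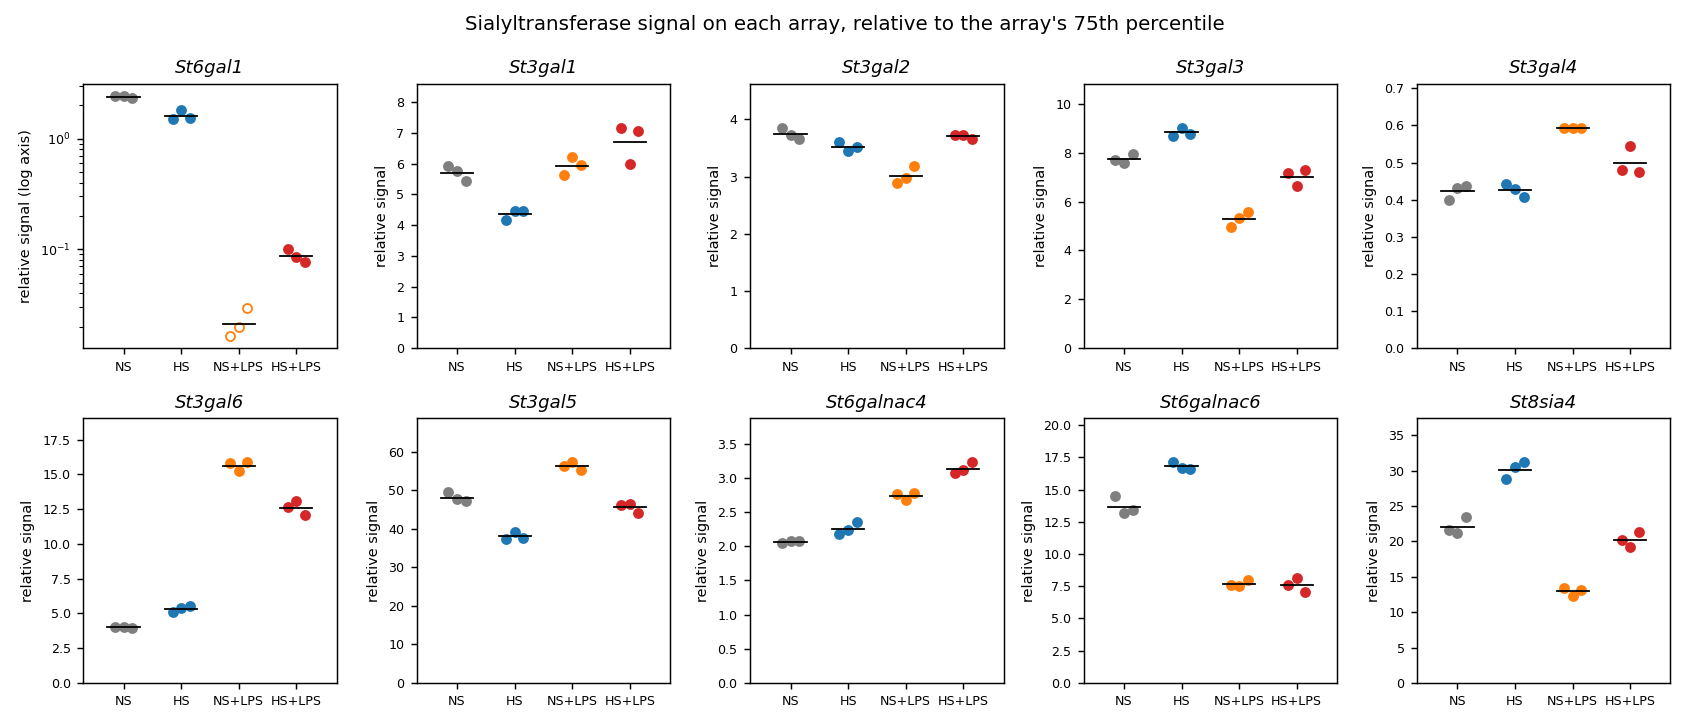
Relative signal of the probe used for each of the 10 genes (vertical axes; log axis for St6gal1 only, linear from 0 for the others) on each of the 12 arrays, by group (horizontal axes); dots are arrays, black lines are geometric means, and open dots are groups in which the probe was not well above background. St6gal1 drops from 2.34 to 2.44 in NS to at most 0.0293 in NS+LPS, while St3gal6 goes from 3.95 to 4.04 up to 15.2 to 15.9.

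St6gal1 had the largest LPS difference of the 10 genes. Its downstream probe, the brighter one, read 2.40, 2.44 and 2.34 in the 3 NS samples and 1.51, 1.82 and 1.53 in HS. With LPS alone it read 0.0164, 0.0199 and 0.0293, where it was well above background on none of the 3 arrays. With LPS and salt together it read 0.101, 0.0846 and 0.0763 and was well above background on all 3. The order of the groups was NS, HS, HS+LPS and NS+LPS, with no overlap between any of them. The lowest signal called well above background on an array lay between 0.0377 and 0.0636, so the HS+LPS values stood only a little above it.

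Because NS+LPS had no measured St6gal1 level, its differences are lower bounds. Each sets the brighter group's mean against the dim group's mean of, per array, the probe's own signal or the lowest signal well above background, whichever was higher. St6gal1 was at least 45.4-fold lower in NS+LPS than in NS, and at least 1.64-fold higher in HS+LPS than in NS+LPS. The fitted log2 differences of -6.82 and 2.03 (SE 0.18) rest on the signal below background. On the shared slide alone, which leaves out NS+LPS replicate 3, the first was -7.05. With normexp background correction the 2 values were -4.09 and 0.70. Between HS and HS+LPS, both measured, St6gal1 fell by 4.22 on the log2 scale (SE 0.18), or 18.6-fold. That value was -2.85 with normexp background correction and -3.00 with the mean of both probes.

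Salt alone lowered the St6gal1 downstream probe by less. Its log2 difference between HS and NS was -0.57 (SE 0.18), a 1.48-fold lower level, and the groups did not overlap. The call did not hold without the filter on dim probes, with the replicate number as a block, or in 5 of the 6 fits that left out 1 array (NS 1, 2 or 3, or HS 1 or 3), although the difference stayed between -0.52 and -0.59 in them.

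The upstream St6gal1 probe was printed in 10 spots on each array. Its mean read 0.0756, 0.0864 and 0.0997 in NS and 0.0746, 0.0660 and 0.0675 in HS. It read 0.0244, 0.0474 and 0.0351 in NS+LPS and 0.0185, 0.0196 and 0.0230 in HS+LPS. All 10 spots were well above background on each NS array, 6 to 9 on the HS arrays and 0 to 2 on the LPS arrays. On this probe NS was at least 1.64-fold above NS+LPS and HS at least 1.21-fold above HS+LPS. It had no measured level in either LPS group, so the higher signal of HS+LPS on the downstream probe was seen with 1 probe only. The upstream probe's fitted log2 difference between HS+LPS and NS+LPS went the other way, at -0.76 (SE 0.20), and was called lower. That value rests on signal below background in both groups.

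**Figure D2:**
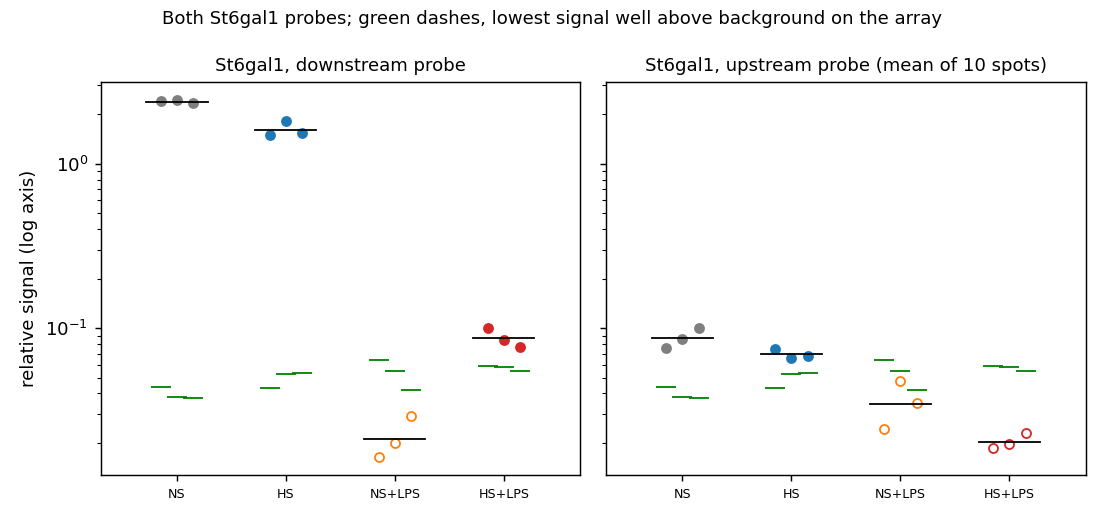
Relative signal (vertical axis, log scale) of the downstream (left) and upstream (right) St6gal1 probe on each array, by group (horizontal axis); open dots are groups not well above background, black lines geometric means, and green dashes the lowest signal called well above background on each array. Both probes lie under the green dashes or close to them in NS+LPS, and only the downstream probe clears them in HS+LPS, at 0.0763 to 0.101.

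St3gal1 and St3gal2 add α2,3-linked sialic acid to galactose on O-glycans, and St3gal2 also acts on gangliosides. The St3gal1 downstream probe read 5.93, 5.76 and 5.44 in NS and 4.18, 4.46 and 4.46 in HS. It read 5.62, 6.22 and 5.94 in NS+LPS and 7.17, 5.99 and 7.06 in HS+LPS. Salt without LPS lowered it, with a log2 difference of -0.39 (SE 0.072) and no overlap, and the upstream probe gave -0.37. The salt difference with LPS was 0.18 on the downstream probe, which did not pass the test, and -0.59 on the upstream probe, which read 5.37, 5.40 and 5.42 in NS+LPS and 3.57, 3.75 and 3.46 in HS+LPS. The downstream value passed without HS+LPS replicate 2 (0.27), with quantile normalization or the deposited table (0.20), with the filter on all 12 arrays and with slide as a random block (0.18 in both). The mean of both probes was called lower (-0.20), so this direction depends on the probe.

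LPS without added salt separated the St3gal1 probes as well. The log2 difference was 0.05 downstream, with overlapping groups, and 0.94 upstream, where NS read 2.97, 2.80 and 2.69. The difference of the salt effects was 0.57 (SE 0.10) downstream and -0.22 upstream, so its sign depended on the probe. LPS with added salt gave positive differences on both, 0.62 downstream and 0.72 upstream.

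St3gal2 had small differences. Its brighter probe (chr8:113495359-113495418, plus strand, mm9) read 3.86, 3.72 and 3.66 in NS and 3.60, 3.45 and 3.52 in HS. With LPS it read 2.88, 2.97 and 3.18 (NS+LPS) and 3.73, 3.73 and 3.66 (HS+LPS). NS+LPS lay below every other group. The log2 difference was -0.32 (SE 0.043) for LPS without salt and 0.30 for salt with LPS, and the salt difference without LPS (-0.09) and the LPS difference with salt (0.07) did not pass. Its dimmer probe, whose coordinates span far more than its own length (chr8:113486235-113491348), stayed between 0.212 and 0.288 on all 12 arrays. That probe gave 0.22 for salt with LPS, also called higher, and -0.00021 for LPS without salt, which did not pass. The difference of the salt effects was 0.39 on the brighter probe and 0.11 on the dimmer, and only the first was called.

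**Figure D3:**
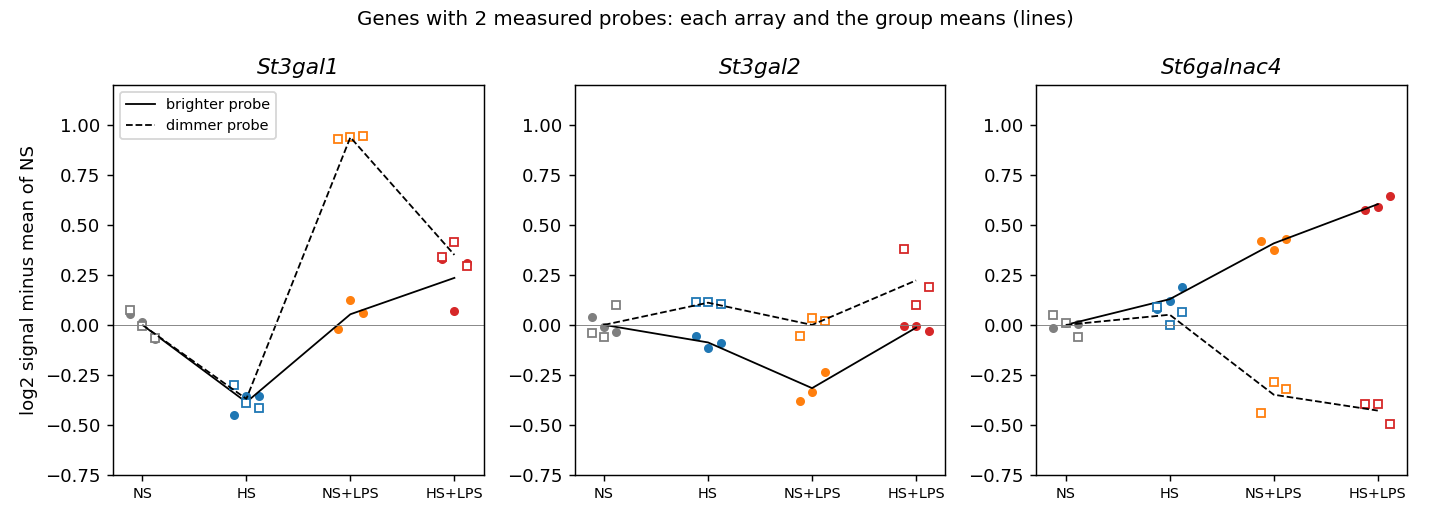
Log2 signal minus the probe's own NS mean (vertical axis) for St3gal1, St3gal2 and St6galnac4 by group (horizontal axis); filled circles and solid lines are the brighter probe, open squares and dashed lines the dimmer probe, each point 1 array and each line the group means. The St3gal1 probes part in NS+LPS (0.05 and 0.94) and the St6galnac4 probes part in both LPS groups (0.41 and -0.35 in NS+LPS).

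St3gal3, St3gal4 and St3gal6 sialylate N-glycans and related chains, and St3gal4 and St3gal6 take part in making selectin ligands. St3gal6 (probe at chr16:58470722-58470781, minus strand) read 4.04, 4.0 and 3.95 in NS and 15.8, 15.2 and 15.9 in NS+LPS. Its log2 difference with LPS was 1.97 (SE 0.045), a 3.91-fold higher level, and it was the largest increase of the 10 genes. The groups did not overlap, and with added salt the LPS difference was 1.24, or 2.36-fold.

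The St3gal6 difference between salt groups had opposite signs without and with LPS. HS read 5.08, 5.41 and 5.53, above all NS samples, and the log2 difference was 0.42 (SE 0.045). HS+LPS read 12.7, 13.1 and 12.1, below all NS+LPS samples, and the difference was -0.31. The difference of the 2 effects was -0.73 (SE 0.063). The sign with LPS rests on HS+LPS, so salt cannot be told apart there from its slide and scan day.

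St3gal3 (chr4:117604858-117604917, minus strand) ran the other way with LPS. It read 7.72, 7.57 and 7.93 in NS and 8.70, 9.03 and 8.78 in HS. The LPS groups read 4.98, 5.32 and 5.58 without salt and 7.16, 6.65 and 7.29 with it, with no overlap in any of the 4 comparisons. LPS lowered it by a log2 difference of -0.55 (SE 0.051) without salt and -0.33 with salt, and salt raised it by 0.19 without LPS and 0.41 with LPS. The call for salt without LPS was lost without NS replicate 2 (0.18). The difference of the salt effects, 0.22, lost its call without the filter and in 10 of the 12 fits that left out 1 array, all but those without NS+LPS 3 or HS+LPS 2 (0.18 to 0.24).

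St3gal4 (chr9:34854434-34854493, minus strand) did not separate NS from HS. It read 0.400, 0.430 and 0.436 in NS and 0.442, 0.428 and 0.406 in HS, a log2 difference of 0.01 (SE 0.060) with overlapping groups. NS+LPS lay at 0.593, 0.592 and 0.594, above both, with a log2 difference from NS of 0.49. HS+LPS lay between, at 0.479, 0.545 and 0.475, with -0.25 against NS+LPS and 0.23 against HS. The difference of the salt effects (-0.26) lost its call in 9 of the 12 fits that left out 1 array (all but NS 3, HS 3 and HS+LPS 2), without the filter and with quantile normalization (-0.21).

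St3gal5 makes the ganglioside GM3, from which other gangliosides of the cell surface are built. Its probe (chr6:72104404-72104463, plus strand) read 49.4, 47.7 and 47.1 in NS and 37.4, 39.1 and 37.6 in HS, and 56.3, 57.2 and 55.3 in NS+LPS and 46.2, 46.4 and 44.1 in HS+LPS. Salt lowered it in both settings, with log2 differences of -0.34 without LPS and -0.30 with LPS (SE 0.038). LPS raised it by 0.23 without salt and 0.26 with salt. No group overlapped in these comparisons, and the difference of the salt effects was 0.03 (SE 0.054).

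**Figure D4:**
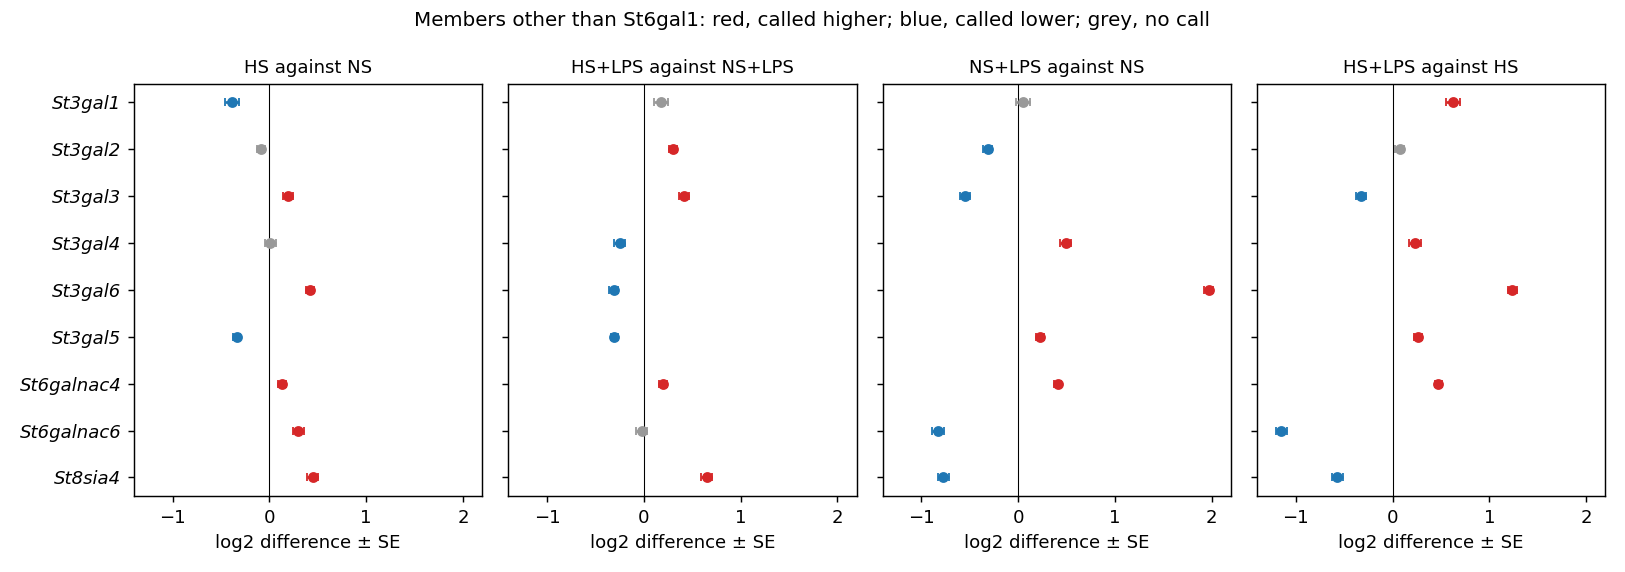
Log2 differences (horizontal axes, with SE from the limma fit as bars) of the 9 members other than St6gal1 (vertical axis) in the 4 comparisons; red points were called higher, blue lower and grey neither, at an adjusted p under 0.05. St3gal6 stands farthest to the right with LPS, at 1.97 and 1.24, and St6galnac6 farthest to the left, at -0.83 and -1.15.

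St6galnac4 and St6galnac6 attach sialic acid to N-acetylgalactosamine, the first on O-glycans and the second on glycolipids among others. They are neighbours on chromosome 2, with no other gene between them in RefSeq's order. St6galnac6 (chr2:32476265-32476324, plus strand) read 14.5, 13.2 and 13.4 in NS and 17.1, 16.7 and 16.6 in HS, against 7.62, 7.51 and 7.97 in NS+LPS and 7.58, 8.16 and 7.05 in HS+LPS. LPS lowered it 1.77-fold without salt (log2 difference -0.83, SE 0.058) and 2.22-fold with salt. Salt raised it by 0.30 without LPS and gave -0.02 with LPS, where the groups overlapped. The difference of the salt effects was -0.32. A second probe was well above background on 1 NS and 1 HS array only and did not pass the filter.

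The upstream St6galnac4 probe, the brighter one, read 2.05, 2.08 and 2.07 in NS and 2.18, 2.25 and 2.35 in HS. Under LPS it read 2.77, 2.68 and 2.78 without salt and 3.08, 3.11 and 3.23 with salt. Every group stood above the one before it. The log2 differences were 0.41 (SE 0.039) for LPS without salt and 0.47 with salt, and 0.13 for salt without LPS and 0.20 with LPS. The downstream probe went the other way with LPS, from 1.44, 1.40 and 1.33 in NS to 1.02, 1.14 and 1.11 in NS+LPS (-0.35), and gave -0.48 with salt. The direction of St6galnac4 with LPS therefore depended on the probe. For salt with LPS the downstream probe gave -0.08 and the mean of both probes 0.06, and neither was called. The call for salt without LPS was lost in 5 of the 6 fits that left out 1 array (NS 1, 2 or 3, or HS 2 or 3). Normexp correction, no filter, the mean of probes, the shared slide alone and only the groups compared also lost it.

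St8sia4 builds polysialic acid on a few carrier proteins, among them neuropilin-2 and CCR7. Its probe (chr1:97484331-97484390, minus strand) read 21.7, 21.2 and 23.4 in NS and 28.8, 30.5 and 31.2 in HS. It read 13.4, 12.3 and 13.2 in NS+LPS and 20.3, 19.2 and 21.4 in HS+LPS. Salt raised it 1.37-fold without LPS (log2 difference 0.45, SE 0.058) and 1.57-fold with LPS (0.65), and no sample overlapped. LPS lowered it 1.71-fold without salt and 1.49-fold with salt. The difference of the salt effects was 0.20 (SE 0.082), which did not pass the test here and passed with quantile normalization (0.27).

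Of the other 10 sialyltransferases on the array, 2 passed the filter. St6galnac1, which starts sialylation of the simplest O-glycan, was well above background on all 12 arrays and fell with LPS under added salt by 0.74 on the log2 scale (SE 0.18, adjusted p = 0.00425 by limma). Its mean relative signal was 1.46 ± 0.292 (SD, n = 3) in HS and 0.878 ± 0.189 in HS+LPS. St8sia1, which extends GM3 to GD3, passed no test. St6gal2, St6galnac2, St6galnac3, St6galnac5, St8sia2, St8sia3, St8sia5 and St8sia6 were not well above background on all 3 arrays of any group.

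The genes whose log2 pattern over the 12 arrays was most like that of St6gal1 were Rab40c (Pearson r = 0.999), Man1c1 (0.998), Acss1 (0.998), Fhod1 (0.997) and Mical3 (0.997), out of 12164 genes well above background on all 12. The arrays share groups, slides and scan day, and the St6gal1 values in NS+LPS lay below background, so these are descriptions. Acss1, an acetyl-CoA synthetase, had a mean relative signal of 10.5 ± 0.259 (SD, n = 3) in NS and 8.53 ± 0.296 in HS, then 0.876 ± 0.0342 in NS+LPS and 1.80 ± 0.0833 in HS+LPS. Man1c1, a Golgi mannosidase of N-glycan trimming, had 6.11, 5.79, 1.66 and 2.44 in the same order. The likeness was the rule by which they were picked, so their shared order of groups is no further result.

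Further genes of the pathway were followed in lists of 55 genes, 49 of them tested. Salt without LPS left 7 higher and 18 lower, and salt with LPS 15 and 19. LPS without salt left 23 higher and 13 lower, and LPS with salt 26 and 14. The salt effect differed with LPS in 19. The shares of all genes called in each direction are those given above, and they also stand beside the list counts below. With both directions together, 51.0% of the 49 were called for salt alone and 73.5% for LPS alone. Of all 13856 genes, 5132 were called for salt alone and 8834 for LPS alone. The values below are from the brightest probe of each gene, with adjusted p from limma with Benjamini-Hochberg adjustment over all 13856 genes.

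Of 9 tested genes that make, activate or transport sialic acid, LPS without salt raised 6 and lowered 3, with a median log2 difference of 0.27. Slc35a1, the Golgi carrier of CMP-sialic acid that all sialyltransferases depend on, rose by 0.82 on the log2 scale (SE 0.067, adjusted p = 1.7e-06, limma), and by 1.08 under added salt. Nanp, the phosphatase that releases free sialic acid, had a difference of -0.64 (adjusted p = 9.9e-06) and -0.80 in the same comparisons. Pgm3 and Gnpnat1, which act earlier on the amino sugar precursors, rose by 0.51 and 0.90 on the brighter probe, but the other Gnpnat1 probe gave -0.28 and the mean of the Pgm3 probes -0.01. Salt called 2 higher and 2 lower without LPS and 3 and 3 with LPS, none of them by 0.5 or more on the log2 scale.

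Of 9 tested genes that remove, break down or modify sialic acid, Npl, the lyase that cleaves free sialic acid, moved most. Its mean relative signal was 1.33 ± 0.173 (SD, n = 3) in NS and 1.63 ± 0.204 in HS, against 4.65 ± 0.395 in NS+LPS and 11.3 ± 1.24 in HS+LPS. LPS raised it 3.52-fold without salt (adjusted p = 4.0e-07, limma) and 6.94-fold with salt, and salt with LPS 2.42-fold (adjusted p = 1.6e-05). Neu1, the lysosomal sialidase, rose by 0.52 with salt under LPS and by 0.87 with LPS under salt. Salt without LPS raised Slc17a5, the lysosomal sialic acid exporter, by 0.50 (adjusted p = 0.0021), but its other probe was lower by -0.21. The median difference of the list with LPS alone was 0.02, and its counts were 1 higher and 2 lower for salt alone, 5 and 1 for salt with LPS, 2 and 3 for LPS alone and 3 and 2 for LPS with salt.

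The 2 proteases known to cut sialyltransferases loose from the Golgi were also measured. Sppl3, an intramembrane protease of Golgi glycosyltransferases, went from 23.8 ± 0.231 (SD, n = 3) in NS to 10.3 ± 0.0395 in NS+LPS, a 2.32-fold lower level (adjusted p = 1.4e-09, limma), and was 2.81-fold lower with LPS under salt. Its dimmer probe gave log2 differences of 0.05 and -0.21 in these comparisons. The fall without salt was therefore seen on 1 of its 2 probes. With LPS under salt the dimmer probe was also called lower, though by less. Bace1, known to cleave St6gal1, was lower with LPS under salt (log2 difference -0.74, adjusted p = 0.0016), and its difference of -0.36 without salt did not pass (adjusted p = 0.067).

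Of 15 tested genes that build the acceptor glycans, LPS without salt raised 7 and lowered 4, with a median log2 difference of 0.10. B4galt1, which adds the galactose that St6gal1 caps, had log2 differences of -0.85 with LPS (adjusted p = 3.8e-06, limma) and -0.65 with salt (adjusted p = 0.00013). Its other probe gave -0.32 with LPS, which did not pass, and -0.74 with salt. With LPS under salt its probes disagreed, at -0.37 and 0.53. B4galt6, a lactosylceramide synthase that supplies St3gal5's acceptor, had -1.0 with LPS (adjusted p = 2.9e-08) and -0.72 with salt (adjusted p = 5.1e-06). The branching enzyme Mgat4a rose 2.10-fold with LPS, and C1galt1, the core O-glycan galactosyltransferase, 1.76-fold. Salt under LPS raised Mgat4b 1.55-fold and Mgat4a 1.43-fold. Mgat5 lay near the background, well above it on 2 of 3 HS and 2 of 3 NS+LPS arrays, and its relative signal was 0.0548 to 0.110 in HS, 0.0566 to 0.0996 in NS+LPS and 0.135 to 0.202 in HS+LPS. With LPS under salt Mgat4a and Gcnt1 rose 2.78-fold and 1.70-fold, and the ganglioside enzyme B4galnt1 was 1.82-fold lower.

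**Figure D5:**
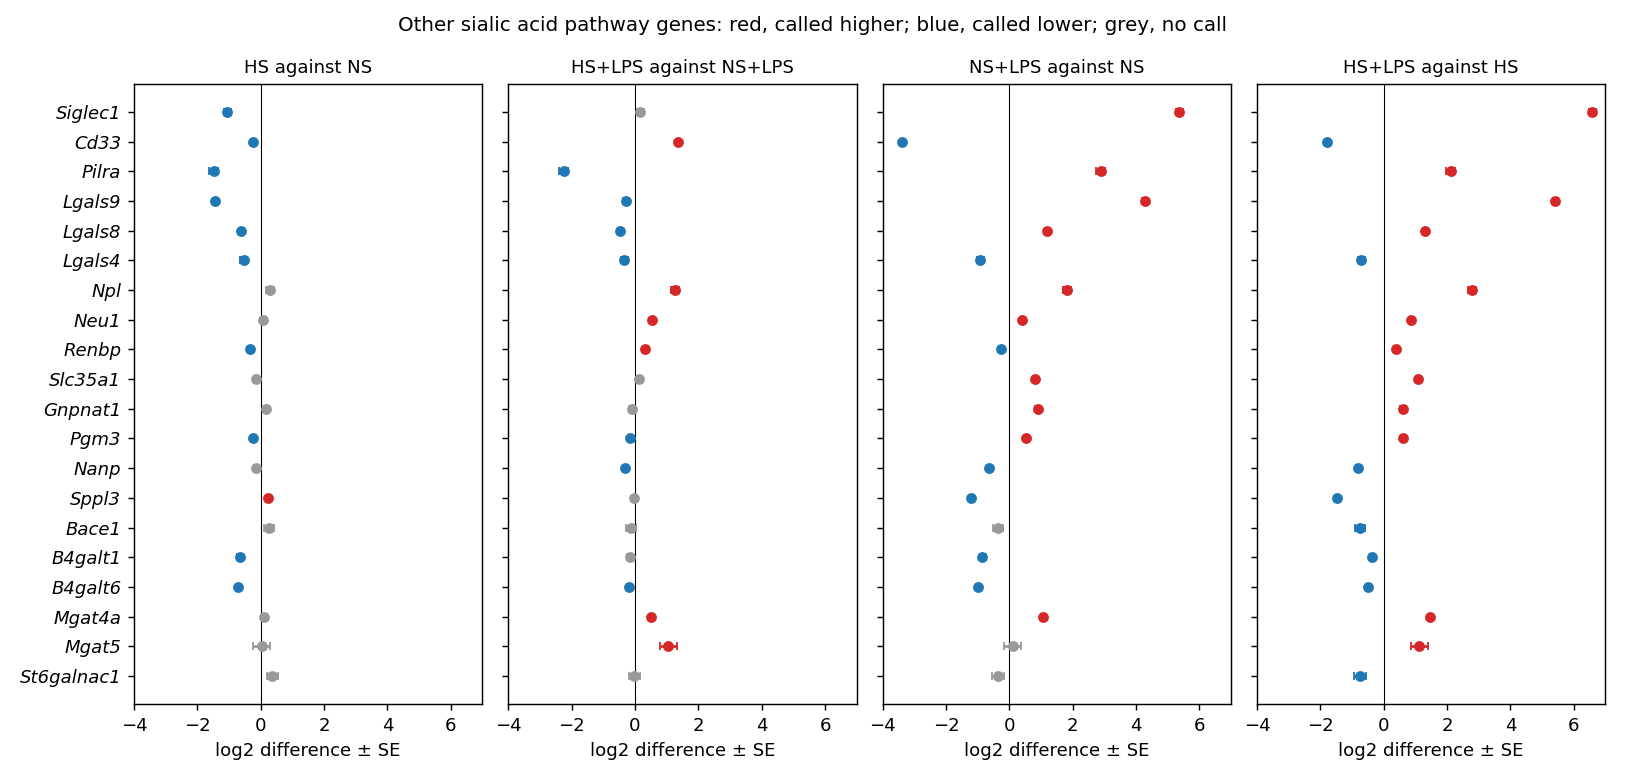
Log2 differences (horizontal axes, SE as bars) in the 4 comparisons for 20 other genes of the sialic acid pathway (vertical axis), by the probe used for each gene; red points were called higher, blue lower and grey neither, at an adjusted p under 0.05 in limma. Siglec1 and Lgals9 stand farthest to the right with LPS, at 5.37 and 4.27 without salt, and Cd33 farthest to the left, at -3.39.

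Of 9 tested Siglecs and related receptors of sialylated ligands, LPS without salt raised 5 and lowered 1. Salt lowered 6 without LPS and 6 with LPS, not all of them the same. Cd33 and Siglec1 were among the 6 only without LPS, and Siglece and Siglecg only with LPS. The median log2 difference was 1.15 for LPS alone and -0.28 for salt alone. Siglec1, the macrophage receptor for α2,3-linked sialic acid, went from 0.611 ± 0.0545 (SD, n = 3) in NS to 25.3 ± 2.95 in NS+LPS, 41.3-fold higher (adjusted p = 3.2e-11, limma), and was 96.2-fold higher with LPS under salt. Salt alone lowered it 2.07-fold. The other, dimmer Siglec1 probe went the same ways by less. It was 16.0-fold higher with LPS, 22.5-fold higher with LPS under salt and 1.47-fold lower with salt alone. Cd33 fell 10.5-fold with LPS, from 6.18 ± 0.139 to 0.588 ± 0.0206, and 3.42-fold with LPS under salt. Salt under LPS raised Cd33 2.59-fold (adjusted p = 6.5e-08). Pilra, a receptor for sialylated O-glycoproteins, rose 7.41-fold with LPS and was lower with salt, 2.79-fold without LPS and 4.77-fold with LPS. The dimmest of its 4 probes in NS+LPS gave 0.19 on the log2 scale with LPS. Its paired receptor Pilrb1 was well above background in NS+LPS only, at least 10.2-fold above NS and at least 7.02-fold above HS+LPS; it is counted among the 6 lowered by salt alone, although neither NS nor HS had a measured level. Siglecg, well above background on 2 NS+LPS arrays and on no HS+LPS array, was at least 1.50-fold lower in HS+LPS than in NS+LPS.

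All 5 galectins were tested, and 4 were lower with salt without LPS, with a median log2 difference of -0.53 against 0.16 for LPS alone. Lgals9 fell 2.72-fold with salt alone (adjusted p = 1.0e-06, limma) and rose 19.2-fold with LPS and 42.8-fold with LPS under salt. Its mean relative signal was 0.995 ± 0.0532 (SD, n = 3) in NS and 0.366 ± 0.0357 in HS, against 19.1 ± 0.826 in NS+LPS and 15.6 ± 0.620 in HS+LPS. Lgals8 was 1.52-fold lower with salt alone and rose 2.27-fold with LPS. Lgals4 was lower in both, by 1.44-fold and 1.88-fold.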

How the data were processed

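The members and the gene lists were chosen with earlier results of these data known. Per the file headers, the deposited scanner values are intensity on a linear scale, made by Feature Extraction 10.7.3.1 with the background taken off, and the flags for signal well above background, outliers and saturation are 0 or 1 for each spot. The authors' deposited value table holds linear intensity too, with a median of 28.8 per array; how it was normalized is not given in the sources used here. It was used as an alternative. Groups were taken from sample titles.

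From the scanner files, log2 of the processed signal was taken minus the array's 75th percentile over 59305 non-control spots. Outlier spots were left out, none was saturated, and repeated spots were averaged, giving 55681 probes (10 lacked a value on some array). The filter asked for signal well above background in every array of 1 or more groups, and a gene was read from its brightest probe. All 12 arrays were fitted by group with limma 3.58.1 in R 4.3.3, and a gene was called at a Benjamini-Hochberg adjusted p under 0.05 over 13856 genes. The fit was tested on simulated data. The number of arrays limits the precision.

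Named were the members with all probes, the other sialyltransferases, at most 4 called genes per pathway list and comparison with a log2 difference of at least 0.5, and the 5 genes most like St6gal1. Genes outside this were named only for a count or a marker. The alternatives tried included the deposited table, quantile normalization, normexp correction of the background (offset 50), other filters, the mean of a gene's probes, the replicate number or slide as a block, the shared slide alone, only the groups compared, and leaving out each array. Deviations of arrays with the same number correlated between -0.20 and 0.125, so the numbers were not taken as pairs.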

Additional observations from a re-analysis of the deposited data

Results flagged for a closer look

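In 9 genes of the pathway lists the salt effect with LPS differed from that without LPS by the interaction test (limma, Benjamini-Hochberg adjusted p), with a log2 difference of the effects past 0.5. Higher with LPS were Cd33 at 1.62 (adjusted p = 1.6e-06), Siglec1 at 1.22 (0.00025), Lgals9 at 1.15 (3.6e-05), Npl at 0.98 (0.0021), Renbp, the renin-binding epimerase, at 0.65 (0.00017) and B4galt6 at 0.52 (0.00041). Lower with LPS was Pilra at -0.77 (adjusted p = 0.013) on its brightest probe. Another Pilra probe gave -1.87 and was called lower, but it was well above background on no HS array. The remaining Pilra probes gave -0.61 and -0.70 and did not pass the test. Siglecg (-1.88) and Pilrb1 (-1.82) were also called lower, but these fits rest on signal below background: Pilrb1 was not well above background in NS, HS or HS+LPS, and Siglecg was so on no HS+LPS array and lost its call with normexp correction (-0.28).

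For Cd33, salt gave a log2 difference of -0.24 without LPS and 1.37 with LPS. For Renbp the values were -0.32 and 0.33, and for Siglec1 -1.05 and 0.17, the last of which did not pass (adjusted p = 0.19). The other Siglec1 probe gave 0.49 (SE 0.21) for the interaction and did not pass the test. For Pilra, salt gave -1.48 without LPS and -2.25 with LPS. HS+LPS had its own slide and scan day, which cannot be told apart from the interaction.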

How the results depend on the processing

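Over the 10 sialyltransferases, 779 of 815 log2 differences under the alternatives moved by less than the spread between replicates. The mean of a gene's probes turned 1 called value, St6galnac4 for LPS under salt, to -0.0021, the probes going opposite ways. Calls changed in 55 of the 815, 31 of them on leaving out 1 array. The number of members called for salt without LPS was 8, and 5 to 7 with 1 array left out (5 without NS replicate 2). With the replicate block 7, 8, 9, 9 and 7 members were called in the 5 comparisons, where St6gal1 lost its call for salt alone, against 8, 8, 9, 9 and 7. The same-numbered arrays share only a number, and this block moved no other member's call. Over 64 called values of named pathway genes, 1016 of 1022 alternatives kept the direction and the call. The mean of probes turned Gnpnat1 for LPS under salt to -0.031 and Pgm3 for LPS alone to -0.015, and lost the calls of Pgm3 under salt and of Slc17a5. With normexp correction Siglecg lost both of its calls (-0.17 and -0.28). St6gal1 had no value in the filter that needs all 12 arrays, the shared slide served only the comparisons of NS with HS and with NS+LPS, and the fit on only the groups compared did not apply to the interaction. Signal over background limits St6gal1 in NS+LPS.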
